A study of Mus musculus with 16 samples.

Results

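The change in gene expression between 2 and 6 h of CD3/CD28 stimulation was followed in D10 T cells that had not received the inhibitor, called control cells here. D10 cells descend from a cloned mouse T cell line of the Th2 type and were grown with interleukin-2. Stimulation was by streptavidin-linked, biotinylated antibodies to CD3 and CD28, and the 0 h cells had none. The 2 arrays of control cells at 6 h were compared with the 2 arrays of control cells at 2 h, which are 4 of the 16 arrays of the study. The other groups used for reference were control cells at 0 and 12 h, and cells pretreated for 1 h with 10 µM Akti1/2, an allosteric inhibitor of the kinases Akt1 and Akt2, at 2 and 6 h, with 2 arrays each. No group carried a genetic change. The methods call the control cells untreated, whereas the results name a solvent. Each of the 2 chips held 1 array of each group, and for the 4 arrays compared the replicate number was also the chip. Neither the labels nor the methods say whether duplicates came from separate cultures, so that p-values measure the spread between these samples, which may be technical.

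Of the 18138 genes on the arrays, 7395 lay above the negative controls on at least 2 of the 16 arrays and were tested. On the 4 arrays compared, 6288 to 6630 genes were above background, meaning that under 0.01 of the 798 negative controls were as bright. Log2 normalized intensities of duplicates correlated at 0.9903 (2 h) and 0.9917 (6 h), with a median absolute difference of 0.150 and 0.146. Among genes that mark T helper cells, 7 of 9 were above background on both arrays at either time, including Cd3e and Lck, while Thy1 was at background and Cd4 was above it on 1 array at each time. For Th2 markers this held for 6 of 8 genes, Gata3 and Il4 among them, and for B cell markers for 0 of 8. It also held for 1 of 11 markers of other T cell subsets, Prf1, and for 1 of 9 of neutrophils and mast cells, Mpo. Among 5 red cell markers it held for 1, Hba-a1, with intensities of 1925.9 and 1564.6 at 2 h and 1336.7 and 1188.4 at 6 h. RNA came from whole cultures, so that fewer cells of a kind and less RNA per cell cannot be told apart.

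Binding of the T cell receptor together with CD28 starts kinase cascades that release the transcription factors NF-κB, AP-1 and NFAT. Early targets encode transcription factors and inhibitors of the same cascades, and their mRNAs are short-lived. Cytokines, cytokine receptors and the machinery for growth follow, and cytokines released by the cell act back on it through STAT proteins. Akt, which is activated below CD28 and the interleukin-2 receptor, keeps FOXO transcription factors out of the nucleus and promotes growth and lipid synthesis.

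Between 2 and 6 h, 1078 of 7395 genes (14.6%) changed at an adjusted p under 0.05 by limma with Benjamini-Hochberg adjustment. Of these, 547 (7.40% of genes tested) were higher at 6 h and 531 (7.18%) were lower, and 2074 genes had an unadjusted p under 0.05. The change was moderate for most, with a median size of 0.655 on the log2 scale, and it passed 1 in 96 of the genes that rose and 71 of those that fell. For each of the 1078 genes, the 2 arrays at 6 h lay on the same side of both arrays at 2 h. The call itself favours such genes, and their share over all genes tested was not counted, so that nothing is read from this. The median change over all genes tested was -0.0117. The counts leaned on each of the arrays. Leaving out replicate 2 at 2 h gave 451 calls, replicate 2 at 6 h 453, replicate 1 at 6 h 659 and replicate 1 at 2 h 754. A fit of the 4 arrays alone gave 502. The J5 score, the measure named in the methods, passed 20 for 136 of 18138 genes (0.750%), of which limma called 74.

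**Figure D1:**
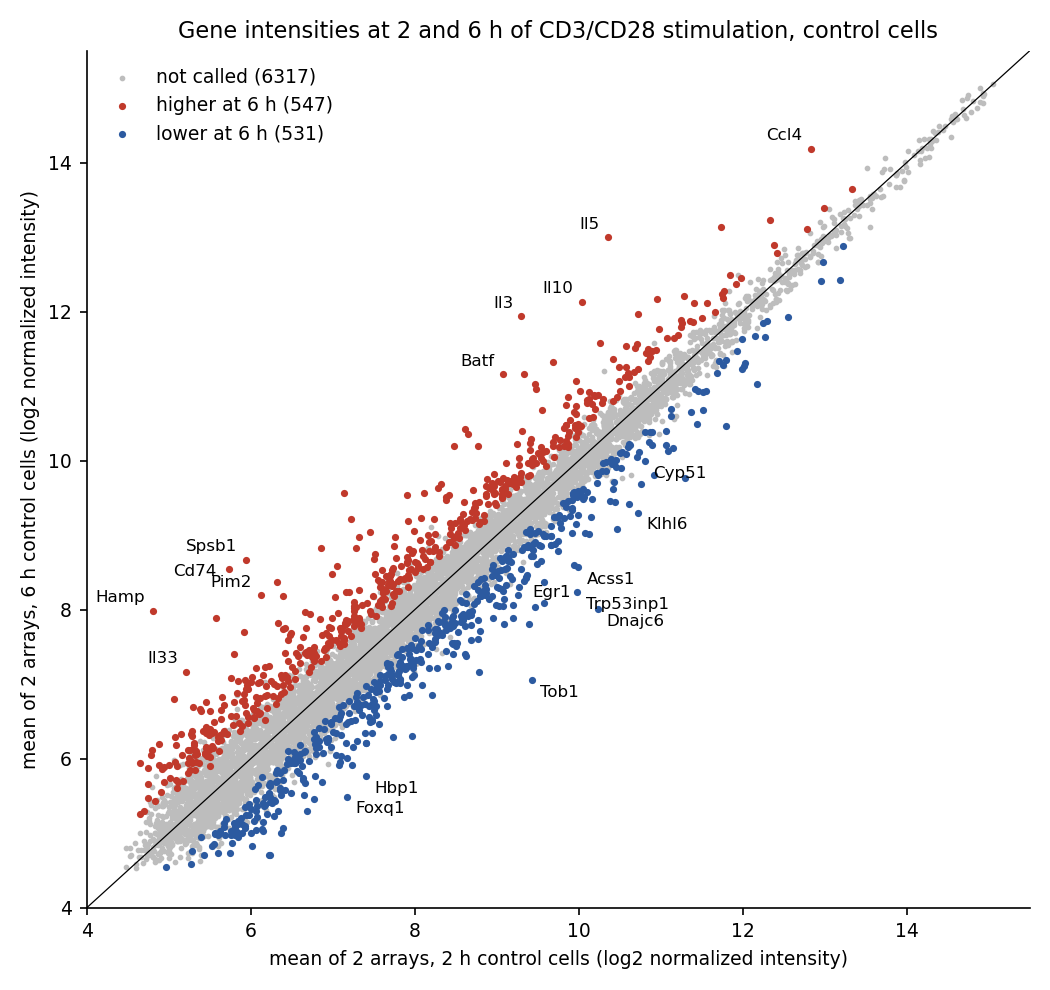
Mean log2 normalized intensity of each of the 7395 genes in control cells at 2 h (horizontal axis) and 6 h (vertical axis), each the mean of 2 arrays, with the line of equal values. Red points are the 547 genes higher at 6 h and blue points the 531 lower (limma), spread over the whole range of intensity, and the names mark examples such as Hamp and Il5 above the line and Tob1 and Dnajc6 below it.

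Among the 15 largest rises were the secreted factors Hamp, Il5, Il3, Il10 and Il33. Hamp, which encodes the iron-regulating hormone hepcidin, read 4.65 and 4.97 (log2 normalized intensity) on the 2 arrays at 2 h, not above background, and 7.88 and 8.10 at 6 h. It was at least 4.95-fold higher at 6 h (adjusted p = 4.62e-06, limma). Il33, a cytokine of the interleukin-1 family that acts on Th2 cells, was likewise at background at 2 h, with 5.37 and 5.06, and read 7.24 and 7.10 at 6 h, at least 2.81-fold higher. Neither gene was above background on any array at 0 h, and both stayed up at 12 h (Hamp with a mean of 7.56 after 7.99 at 6 h, Il33 with 7.09 after 7.17). Hamp was above background only on the control arrays at 6 and 12 h. It thus passed the filter through the times at which it was high.

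Il5, the cytokine that drives eosinophils, read 10.43 and 10.28 at 2 h and 12.76 and 13.24 at 6 h, a 6.24-fold rise (log2 2.64, standard error 0.26, adjusted p = 6.4e-05, limma). Il3, a growth factor for blood cell precursors, rose 6.22-fold, from 9.05 and 9.56 to 11.83 and 12.05. Il10, an inhibitory cytokine, rose 4.26-fold, from 10.18 and 9.90 to 12.06 and 12.20. The 2 h and 6 h arrays of these genes lay far apart compared with the gap between duplicates, which their choice as large called rises favours. Il2ra, the α chain of the interleukin-2 receptor, rose 3.53-fold, with 8.61 on both arrays at 2 h and 10.49 and 10.37 at 6 h.

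Spsb1, an adaptor of a ubiquitin ligase with a SOCS box, rose 6.66-fold, although its 2 h arrays differed (5.49 and 6.39, against 8.75 and 8.60 at 6 h). Bcl2l1, which encodes the survival protein Bcl-xL, read 6.55 and 6.09 at 2 h and 8.26 and 8.48 at 6 h, a 4.14-fold rise. Batf, an AP-1 factor needed for T helper differentiation, rose 4.23-fold, and Gadd45g, which activates stress kinases, rose 3.53-fold. Gbp3, a guanylate-binding protein induced by interferons, rose 3.95-fold and the protease inhibitor Serpinb6b 4.01-fold.

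Cd74, the invariant chain of MHC class II, rose 7-fold, from 5.90 and 5.57 to 8.48 and 8.60. It was above background on 1 of 2 arrays at 2 h and on both at 6 h. Cd74 also marks macrophages, dendritic cells and B cells. The macrophage and dendritic cell markers had 12 entries, in which the gene Lyz2 was repeated. Of these entries, Cd68 was above background on both arrays at 2 h and Cd74 was at 6 h. Another 10, among them Csf1r, Itgam and H2-Ab1, were on no array of the 4. Their summed intensity, Cd74 included, was 1671.7 and 1742.3 at 2 h and 2041.8 and 1964.8 at 6 h. Of these sums, Cd74 alone gave 180.4 and 168.2 at 2 h and 496.7 and 479.5 at 6 h. All 8 B cell markers were at background at both times, with sums of 1084.4 and 1102.8 at 2 h and 1142.0 and 1054.8 at 6 h.

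**Figure D2:**
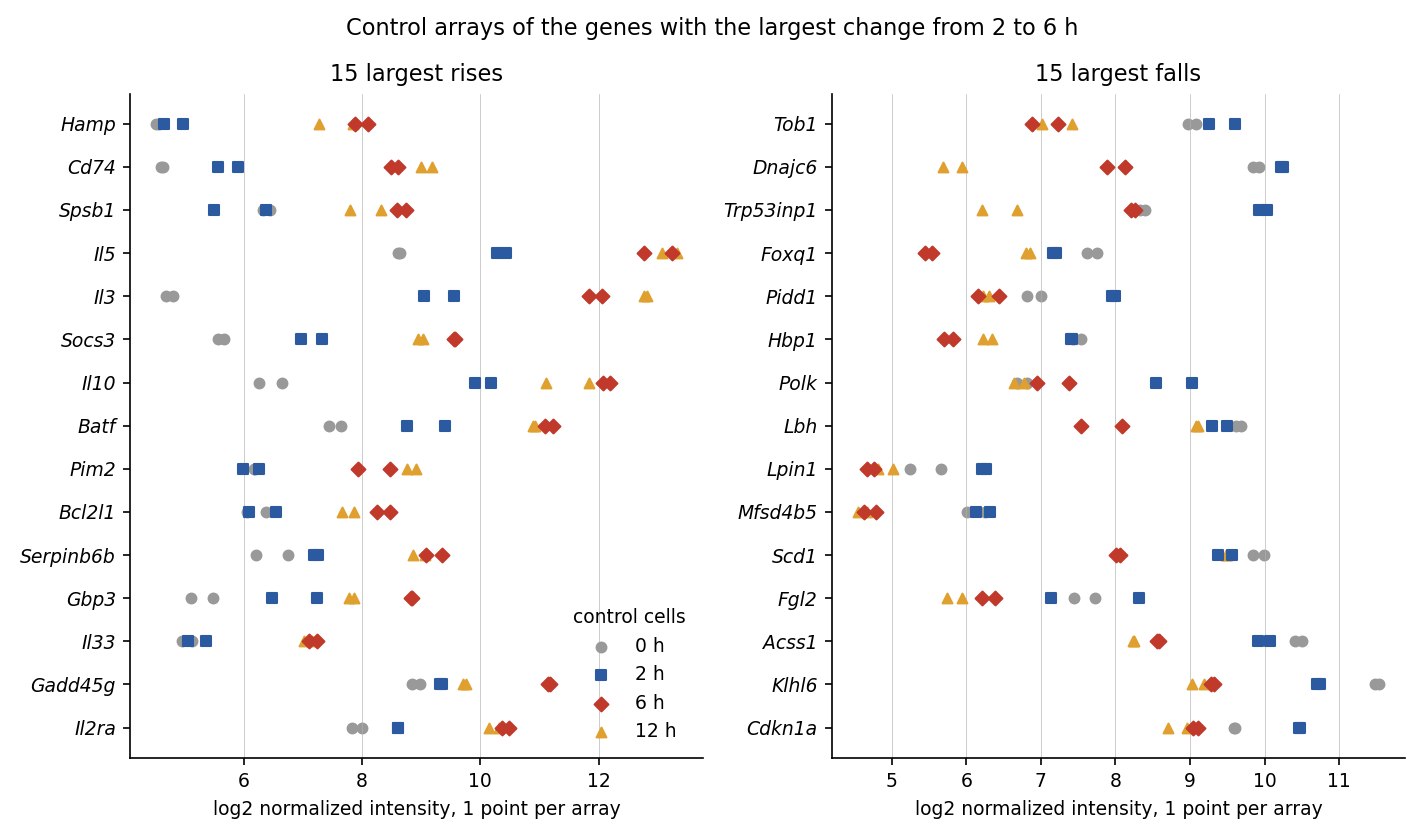
Log2 normalized intensity on each control array (grey circles 0 h, blue squares 2 h, red diamonds 6 h, orange triangles 12 h) for the genes with the 15 largest rises and the 15 largest falls from 2 to 6 h. In every row the 2 squares and the 2 diamonds are separate, as in all genes called. Several falls, such as Trp53inp1, Polk and Pidd1, begin from a 2 h level above that at 0 h.

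The largest fall was that of Tob1. Tob1, an antiproliferative protein that is high in resting T cells, read 9.26 and 9.60 at 2 h and 7.23 and 6.88 at 6 h, a 5.20-fold fall (log2 -2.38, standard error 0.16, adjusted p = 5.89e-06, limma). Hbp1, a transcriptional repressor of cell cycle genes, fell 3.13-fold, from 7.42 and 7.40 to 5.71 and 5.82. Cdkn1a, the cell cycle inhibitor p21, read 10.48 and 10.47 at 2 h and 9.04 and 9.11 at 6 h, a 2.63-fold fall. For each of these genes, duplicates differed by far less than the 2 times did, which their choice as large called falls favours. Dnajc6, the clathrin-uncoating factor auxilin, fell 4.69-fold, from 10.25 and 10.23 to 8.13 and 7.89, and was lower still at 12 h (5.69 and 5.94).

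Some genes known as targets of p53 stood among the same 15, as a description made after their values were seen. No list of p53 targets was fixed, and how others changed was not counted. Trp53inp1, a stress-induced partner of p53, read 9.93 and 10.04 at 2 h and 8.26 and 8.21 at 6 h, a 3.36-fold fall. Pidd1, a death domain protein that activates caspase-2, fell 3.18-fold, from 7.95 and 7.99 to 6.44 and 6.16. Polk, a DNA polymerase that copies past lesions, fell 3.08-fold, from 8.55 and 9.03 to 7.37 and 6.95. Together with Cdkn1a, these had been higher at 2 h than at 0 h, by 1.62 (Trp53inp1), 1.07 (Pidd1), 2.04 (Polk) and 0.87 (Cdkn1a) on the log2 scale.

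Among metabolic genes, Acss1, a mitochondrial acetyl-CoA synthetase, fell 2.68-fold and Scd1, which desaturates fatty acids, fell 2.71-fold. Lpin1, a phosphatidate phosphatase, dropped under background and was at least 1.47-fold lower at 6 h. Foxq1, a forkhead factor, was at least 2.82-fold lower and Mfsd4b5, a membrane transporter, at least 1.45-fold lower, both at background at 6 h. Klhl6, a BTB-Kelch protein of lymphocytes, fell 2.68-fold and Lbh, a transcriptional cofactor, 3.01-fold. Fgl2, a secreted fibrinogen-like protein, had 2 h arrays of 7.14 and 8.32 against 6.38 and 6.21 at 6 h (adjusted p = 0.0107, limma), and this call was lost without replicate 2 at 2 h (adjusted p = 0.0967) or without replicate 2 at 6 h (0.0761).

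What happened before 2 h divided the 1078 genes into groups. These groups use the 2 h arrays on both sides and are given as a description, and the counts at 12 h use the 6 h arrays on both sides. Of the 531 genes that fell, 56 had been called higher at 2 h than at 0 h (4.42% of all genes tested were), 49 had been called lower already (5.86% of all genes were), and 426 had not been called at 2 h. Of the 56, 41 were no longer called against 0 h at 6 h, 6 were still higher and 9 were lower than at 0 h. Of the 547 genes that rose, 60 had already been called higher at 2 h, 70 had been called lower, and 417 had not been called. Of the 70 that dipped, 58 were not called against 0 h at 6 h. At 12 h, 79 of the genes that had risen were called lower than at 6 h and 35 higher (6.64% and 6.95% of all genes tested were), while 106 of those that had fallen were called higher and 65 lower.

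The 6 genes that fell back but were still called above 0 h were Nfkbiz, Tnfaip3, Cd69, Cxcl10, Ccrl2 and Rgs12. Nfkbiz, which encodes IκBζ, a nuclear partner of NF-κB, had risen by 4.01 (log2) at 2 h and read 10.21 and 10.03 there, then 8.97 and 9.06 at 6 h, a 2.16-fold fall (adjusted p = 0.00462, limma). Tnfaip3, the ubiquitin-editing inhibitor A20, read 9.66 on both arrays at 2 h and 8.92 and 8.81 at 6 h, a 1.74-fold fall (adjusted p = 0.0243, limma). Its call was lost without any 1 of the 4 arrays (adjusted p 0.0758 to 0.129). Cd69, an early activation receptor that holds T cells in tissue, read 11.15 and 10.97 at 2 h and 10.35 and 10.07 at 6 h, a 1.81-fold fall, with the call lost without replicate 2 at 6 h (adjusted p = 0.0651).

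Among the genes that fell back and were no longer called against 0 h were Dusp1, a phosphatase that switches off MAP kinases, and Bcl2l11, the pro-apoptotic protein Bim. Dusp1 read 10.04 and 9.84 at 2 h and 8.77 and 8.43 at 6 h, a 2.53-fold fall (adjusted p = 0.000441, limma), with a mean of 8.17 at 0 h. Bcl2l11 dropped under background, from 6.74 and 6.63 to 5.26 and 5.32, and was at least 2.00-fold lower. Gfi1, a transcriptional repressor that supports Th2 cell growth, fell 1.55-fold, from a mean of 10.74 to 10.11, with 9.84 at 0 h.

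**Figure D3:**
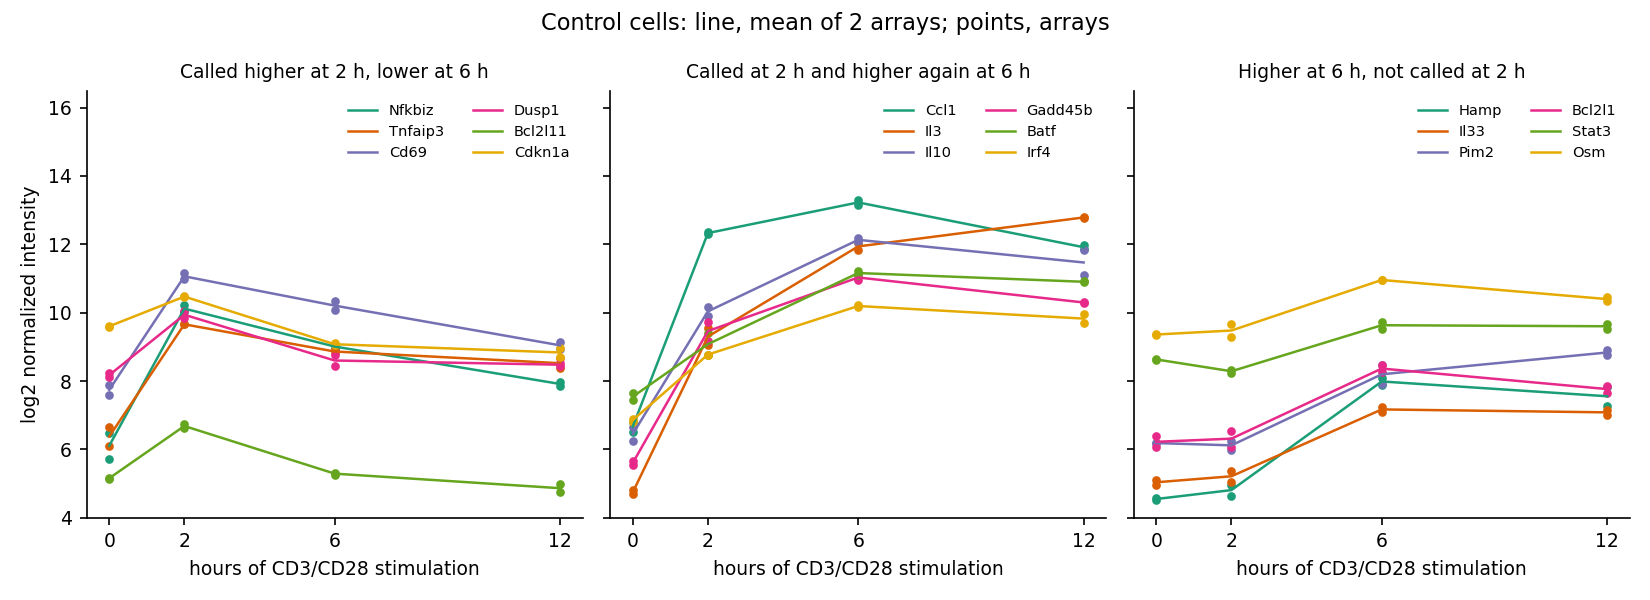
Log2 normalized intensity against hours of stimulation in control cells, with a line through the means of 2 arrays and a point for each array, for 6 genes in each of 3 courses chosen after their values were seen. The left genes peak at 2 h, the middle ones are higher at 2 h than at 0 h and higher again at 6 h, and the right ones first leave their 0 h level between 2 and 6 h.

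Among the 547 genes that rose, 28 were above background on both 6 h arrays but on no control array at 0 or 2 h. Besides Hamp and Il33, these include Il24, a cytokine of the interleukin-10 family, at least 2.01-fold higher (5.22 and 5.37 at 2 h, 6.73 and 6.65 at 6 h). Xcl1, the chemokine lymphotactin, was at least 1.53-fold higher. Pecam1, an adhesion and inhibitory receptor, was at least 2.18-fold higher and Lfng, which adds sugars to Notch, at least 1.41-fold. Cdk6, a kinase of the G1 phase, was at least 1.22-fold higher, but its call was lost without replicate 2 at 2 h (adjusted p = 0.158) or without either array at 6 h (0.0561 and 0.127). In the other direction, 45 of the 531 genes that fell were above background on both 2 h arrays and on no 6 h array. Foxq1, Mfsd4b5, Lpin1 and Bcl2l11 were among them. Both counts cover called genes only, and such crossings among genes not called were not counted. The filter could also admit a gene through the very arrays on which it was bright. Nothing is therefore read from these counts.

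Genes were also followed in 27 lists by function. Counts are given against all genes tested, of which 7.40% rose and 7.18% fell, with a median change of -0.0117. Lists are described, not tested.

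**Figure D4:**
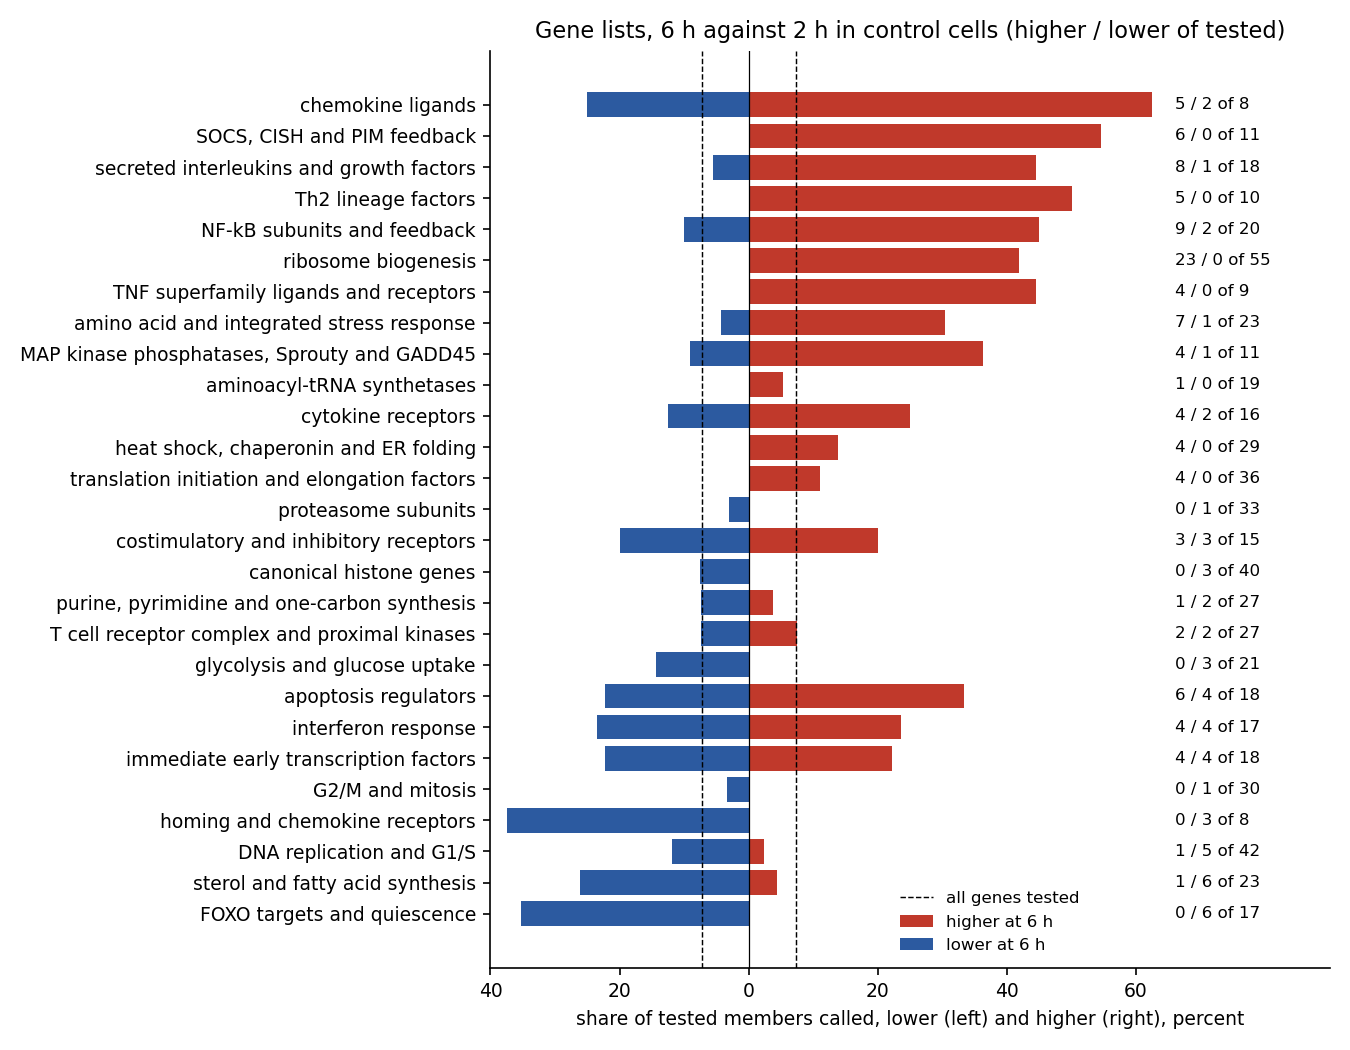
Share of the tested members of each of 27 gene lists called higher at 6 h (red, right) and lower (blue, left) against 2 h in control cells, in percent, with the counts at the right and dashed lines at the shares over all genes tested (7.40% and 7.18%). Chemokine, SOCS and interleukin genes lie at the top, ordered by median change, and FOXO target, sterol and DNA replication genes at the bottom.

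Ligands rose more often than they fell. Of 18 interleukin and growth factor genes tested, 8 rose and 1 fell, with a median of 0.601. Osm, which encodes oncostatin M, rose 2.79-fold, from 9.68 and 9.28 to 10.97 and 10.95. With any 1 of the 4 arrays left out, 6 or 7 of this list rose. The gene that fell was Csf1, the macrophage growth factor, from 7.02 and 7.18 to 6.01 and 6.08 (2.08-fold). The Th2 cytokines Il4 and Il13 were not called, with changes of 0.13 (adjusted p = 0.589) and 0.89 (adjusted p = 0.201) by limma. For Il13 the standard error was 0.43, and the call appeared without background correction (adjusted p = 0.027) and in a fit of the 4 arrays alone (adjusted p = 0.0348).

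Chemokine ligands split by gene. Of 8 tested, 5 rose and 2 fell, with a median of 1.05. Ccl3 and Ccl4, which attract leukocytes, rose 2.32-fold and 2.57-fold, Ccl4 from 12.89 and 12.76 to 14.14 and 14.23. Cxcl2, a neutrophil attractant, rose 3.12-fold with spread at 2 h (7.74 and 6.91, then 8.81 and 9.13). Ccl1, a ligand of the Th2 receptor CCR8, rose 1.86-fold on top of a rise of 5.66 (log2) by 2 h. The genes that fell were Ccl17, a ligand of the Th2 receptor CCR4, by 1.04 on the log2 scale, and Cxcl10, an interferon-induced chemokine, by 0.85. The call for Cxcl10 was lost without replicate 1 at 2 h (adjusted p = 0.0734) or replicate 2 at 6 h (0.109).

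Of 16 cytokine receptor genes, 4 rose and 2 fell. Beside Il2ra, Il2rb rose 2.04-fold and Il27ra 1.64-fold, and Ifngr1, the interferon-γ receptor, fell 1.89-fold, from 8.73 and 8.81 to 7.83 and 7.88. Without replicate 2 at 2 h or at 6 h, 1 of the receptors was called higher and 1 lower. Il27ra lost its call there (adjusted p = 0.0819 and 0.0595), and Il2rb lost it there and without replicate 1 at 6 h (0.056 to 0.0933). Among TNF family genes, 4 of 9 rose and none fell, led by Tnfsf10 (TRAIL, 2.25-fold) and Tnfsf14 (LIGHT, 2.16-fold). Of 8 homing and chemokine receptor genes, none rose and 3 fell, among them Selplg, the ligand of selectins, from 11.32 and 11.55 to 10.42 and 10.55 (1.93-fold). Without replicate 2 at 2 h, 1 of the 3 was called. Of 15 costimulatory and inhibitory receptors, 3 rose and 3 fell, and 1 or 2 did each way with any 1 array left out. Cd82, a tetraspanin, rose 2.38-fold, and Cd80, a CD28 ligand, fell 2.20-fold, with its call lost without replicate 2 at 2 h or replicate 1 at 6 h (adjusted p = 0.0752 and 0.0938). Of 27 genes of the T cell receptor complex and its kinases, 2 rose and 2 fell.

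In the list of SOCS, CISH and PIM genes with the STAT genes they act on, 6 of 11 tested rose and none fell, with a median of 0.728, and 5 or 6 rose with any 1 of the 4 arrays left out. Socs3, which blocks STAT3 signalling, read 7.32 and 6.96 at 2 h and 9.57 and 9.55 at 6 h, a 5.35-fold rise (log2 2.42, standard error 0.23, adjusted p = 6.4e-05, limma). Pim2, a survival kinase, rose 4.22-fold, from 6.26 and 5.98 to 7.93 and 8.47, and Pim3 rose 2.51-fold. Against 0 h, Pim3 had been called lower at 2 h (log2 -0.48) and stood at 0.85 at 6 h. Stat3 rose 2.54-fold, from 8.25 and 8.33 to 9.53 and 9.74, and Stat5a, which carries interleukin-2 signals, rose 2.46-fold, from 6.67 on both arrays to 7.85 and 8.08. Apart from Socs3 these genes had not been called higher at 2 h against 0 h. Cish, an inhibitor of STAT5 signalling, had been, and its further rise of 1.38-fold lost its call without replicate 2 at 2 h or either array at 6 h (adjusted p 0.0803 to 0.134).

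The bases before the start of Socs3, the member of this list that rose most, are shown with the one match to the STAT motif TTCNNNGAA in capitals (RefSeq, GRCm38.p6, chr11:117969367-117969616, minus strand, 5′ to 3′).
Socs3: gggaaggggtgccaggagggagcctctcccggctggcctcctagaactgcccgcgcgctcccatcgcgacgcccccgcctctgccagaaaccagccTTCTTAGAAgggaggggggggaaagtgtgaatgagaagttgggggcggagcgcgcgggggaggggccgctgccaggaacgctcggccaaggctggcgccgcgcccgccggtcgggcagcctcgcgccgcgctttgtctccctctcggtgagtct
The 250 bases before the start held this motif on either strand in 2 of the 8 members with a RefSeq promoter, Socs3 and Bcl6, against 7.28% of the 5491 tested genes with one. A gene with several listed starts counted once, with a match at any of them.

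NF-κB genes went both ways. Of 20 subunit, inhibitor and target genes tested, 9 rose and 2 fell, with a median of 0.436, and 8 or 9 rose and 1 fell with any 1 array left out. The subunits Nfkb2 and Relb, of the slower alternative pathway, rose 2.80-fold and 2.33-fold, Relb from 7.79 and 7.26 to 8.82 and 8.66. Bcl3, a nuclear IκB protein, rose 2.90-fold, and the survival genes Bcl2l1 and Bcl2a1d also stand in this list. Nfkbid, which encodes the nuclear inhibitor IκBNS, read 11.48 and 11.10 at 2 h and 12.25 and 12.16 at 6 h, a 1.88-fold rise after one of 3.28 (log2) by 2 h. The members that fell were Nfkbiz and Tnfaip3. Tnfaip3 had also risen by 3.28 (log2) by 2 h, so that these feedback genes had the same early rise and opposite later changes.

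Their upstream bases are printed for that reason, with matches to the NF-κB consensus in capitals (RefSeq, GRCm38.p6, 5′ to 3′). Tnfaip3 lies on the minus strand at chr10:19015411-19015660 and Nfkbid on the plus strand at chr7:30422156-30422405.
Tnfaip3: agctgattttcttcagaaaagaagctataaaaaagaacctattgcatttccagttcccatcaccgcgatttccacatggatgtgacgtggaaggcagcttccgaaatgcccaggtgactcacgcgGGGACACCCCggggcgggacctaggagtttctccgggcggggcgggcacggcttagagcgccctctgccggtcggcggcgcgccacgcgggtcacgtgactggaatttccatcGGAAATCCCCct
Nfkbid: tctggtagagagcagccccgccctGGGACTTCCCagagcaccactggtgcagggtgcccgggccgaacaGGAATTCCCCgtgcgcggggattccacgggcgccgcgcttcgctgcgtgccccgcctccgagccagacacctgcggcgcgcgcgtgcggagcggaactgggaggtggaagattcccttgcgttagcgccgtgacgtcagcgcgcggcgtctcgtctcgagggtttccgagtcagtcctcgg
Each window held 2 matches. Tnfaip3 has 2 listed starts and Nfkbid 3, and the window printed is the first that held a match, so that a match was required. Nfkbiz, the other member that fell, is not among the genes of the list with a match. Over the list, 8 of 15 genes with a promoter (53.3%) held one, against 8.32% of the tested genes. The list was made of NF-κB subunits, inhibitors and targets, so that its share says nothing about the change from 2 to 6 h. A match lay in 10.1% of all genes higher at 6 h and in 7.11% of those lower, among genes with a promoter.

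Immediate early transcription factors showed no shared direction, with 4 of 18 tested higher, 4 lower and a median of -0.119. The list's largest fall (-2.38) was that of Tob1, the antiproliferative protein named above, which is also counted among the FOXO target genes. The 4 that rose were Batf, Irf4 (2.68-fold, from 8.78 and 8.77 to 10.22 and 10.17), Myc and Irf8. Irf4 works with Batf at Th2 cytokine genes. Myc, which drives growth, read 6.58 and 6.27 at 2 h and 7.72 and 7.79 at 6 h, a 2.52-fold rise after a dip of 1.04 (log2) at 2 h. The AP-1 subunit Jun fell 2.48-fold, from 6.77 on both arrays to 5.66 and 5.26. Egr1, a zinc finger factor, fell 1.93-fold on arrays that differed (9.02 and 9.66, then 8.29 and 8.49), with the call lost without replicate 2 at 2 h (adjusted p = 0.308) or without either array at 6 h (0.175 and 0.116). From 0 to 2 h Egr1 fell by 3.77 on the log2 scale.

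MAP kinase phosphatases and GADD45 genes rose in 4 of 11 and fell in 1, Dusp1. Gadd45b, which acts on stress kinases, rose 2.96-fold after a rise of 3.86 (log2) by 2 h. Among Th2 lineage factors, 5 of 10 rose and none fell, but 2 remained called without replicate 2 at 2 h or at 6 h. Gata3, the master regulator of Th2 cells, changed by -0.08 and was not called.

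Of 17 FOXO target and quiescence genes, 6 fell and none rose, with a median of -0.384, and 5 or 6 fell with any 1 array left out. Ypel3, a growth-restraining protein, read 9.08 and 9.32 at 2 h and 8.19 and 7.94 at 6 h, a 2.20-fold fall (adjusted p = 0.000441, limma). Tsc22d3, the glucocorticoid-induced leucine zipper, fell 1.69-fold, from 8.65 and 8.71 to 7.86 and 7.99. Txnip, which limits glucose uptake, fell 1.69-fold, with the call lost without replicate 2 at 2 h or replicate 1 at 6 h (adjusted p = 0.191 and 0.188). The other members that fell were Tob1, Bcl2l11 and Cdkn2c, an inhibitor of G1 kinases.

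Apoptosis regulators rose in 6 of 18 and fell in 4. Bcl2l1, Bcl2a1d and Casp4, an inflammatory caspase (2.81-fold), rose, whereas Bbc3, the pro-apoptotic protein Puma, fell 1.86-fold, from 8.69 on both arrays to 7.75 and 7.84, and Bcl2l11 fell as given above. Bcl2 itself dropped under background, by at least 1.39-fold (adjusted p = 0.00508, limma), with the call lost without replicate 2 at 2 h (0.0522) or replicate 1 at 6 h (0.0507). With any 1 array left out, 3 of the list rose and 3 or 4 fell.

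Of 55 ribosome biogenesis genes tested, 23 rose, 32 were not called and none fell, with a median of 0.382 and changes from -0.25 to 1.19. Ppan, a factor of the large subunit, read 7.52 and 7.47 at 2 h and 8.81 and 8.57 at 6 h, a 2.28-fold rise (adjusted p = 0.00014, limma). Polr1c, a subunit of RNA polymerases I and III, rose 2.18-fold, from 9.39 and 9.73 to 10.72 and 10.64. Nop56, a core protein of box C/D particles, rose 1.72-fold and Znhit6, their assembly factor, 1.96-fold. The arrays of these genes did not overlap between 2 and 6 h, as in all genes called. The count was 10 without replicate 2 at 2 h, 11 without replicate 2 at 6 h, 16 without replicate 1 at 6 h and 20 without replicate 1 at 2 h, while the median stayed between 0.368 and 0.458. The E-box CACGTG, the motif bound by Myc, lay in 2 of 49 of their promoters, against 10.3% of tested genes.

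Of 36 translation factors 4 rose, and of 19 aminoacyl-tRNA synthetases 1 did, and in both lists none fell. With 1 array left out these counts were 0 to 2 and 0, and without background correction 9 translation factors rose. Amino acid and stress response genes rose in 7 of 23, with Stc2, a secreted glycoprotein, at 2.17-fold, and fell in 1. With an array left out, 2 to 4 of this list rose. Heat shock and chaperone genes rose in 4 of 29, and in 0 or 1 with an array left out. Of 33 proteasome genes 1 was called, Psmb9, a subunit of the immunoproteasome, which was lower. Its call was lost without replicate 2 at 2 h (adjusted p = 0.211) or without either array at 6 h (0.116 and 0.0738).

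Of 23 sterol and fatty acid synthesis genes, 6 fell and 1 rose, with a median of -0.359. Both counts held with any 1 of the 4 arrays left out. Mvd, which decarboxylates mevalonate, read 8.58 and 8.64 at 2 h and 7.43 and 7.39 at 6 h, a 2.30-fold fall (log2 -1.20, standard error 0.12, adjusted p = 7.25e-05, limma). Pmvk, the preceding kinase of the pathway, fell 2.10-fold, from 8.04 and 7.82 to 6.95 and 6.76. Cyp51, which removes a methyl group from lanosterol, fell 1.77-fold, from 10.90 and 10.73 to 9.91 and 10.07, and Nsdhl, which acts later in the same branch, fell 1.73-fold. The gene that rose was Hsd17b7, also a sterol reductase, from 11.53 and 11.28 to 12.03 and 12.21. From 6 to 12 h, in a comparison that shares the 6 h arrays, the list's median was 0.716, with changes of 1.68 for Mvd, 1.46 for Scd1 and 1.34 for Pmvk.

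CCAAT boxes are common before sterol genes, and the window of Mvd, the mevalonate pathway member that fell most, is given with both of its boxes in capitals (RefSeq, GRCm38.p6, chr8:122443423-122443672, minus strand, 5′ to 3′).
Mvd: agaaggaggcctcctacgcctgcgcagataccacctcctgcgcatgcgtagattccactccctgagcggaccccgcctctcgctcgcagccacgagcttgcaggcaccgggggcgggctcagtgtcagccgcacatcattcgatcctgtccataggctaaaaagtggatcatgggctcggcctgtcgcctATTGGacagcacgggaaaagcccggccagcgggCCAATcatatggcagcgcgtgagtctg
CCAAT, on either strand, lay in 14 of 15 promoters of the list (93.3%) and in 42.1% of those of tested genes. The sterol element SRE-1 lay in 0 of the 15, and in 0.0911% of tested genes.

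Of 42 DNA replication and G1/S genes, 5 fell, Cdkn1a most, and 1 rose, and without replicate 2 at 2 h or at 6 h 1 of them fell and none rose. Without background correction, 11 of them fell. Of 30 G2/M genes 1 fell, Ndc80, a kinetochore protein, with its call lost without any 1 of the 4 arrays (adjusted p 0.0713 to 0.242). None of the list fell with the replicate or chip as a block, and 1 rose without replicate 1 at 2 h. Of 40 histone genes 3 fell, with H1f2 down 2.20-fold and H2ac8 2.56-fold, and of 21 glycolysis genes 3 fell. Of the glycolysis genes 1 or 2 fell with an array left out. In nucleotide synthesis, Ctps, which makes CTP, rose 1.56-fold, while Tk1 and Dut, both of thymidine metabolism, fell 1.56-fold and 1.65-fold. Interferon response genes rose in 4 of 17 and fell in 4, and without replicate 2 at 6 h 1 rose and none fell.

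The arrays of Akti1/2-treated cells at 2 and 6 h share no array with the control comparison. There, 2230 genes changed from 2 to 6 h (1179 higher and 1051 lower, 30.2% of genes tested in all), and the change itself differed from that in control cells for 887 genes (12.0%), by the interaction in limma. Of the 547 genes that rose in control cells, 234 (42.8%) also rose with Akti1/2, which is 19.8% of the genes higher there, and 26 fell. The medians over the 547 were 0.660 without and 0.338 with Akti1/2, and 137 differed by the interaction, 132 of them with the smaller change under Akti1/2. Of the 531 genes that fell, 181 (34.1%) fell with Akti1/2 too and 52 rose, with medians of -0.647 and -0.186, and 188 differed, 181 of them with the higher change under Akti1/2. These genes were chosen for their change in control cells, which enters the interaction with the opposite sign. The choice by itself makes the control median the larger and turns the interactions that way, so that nothing is read from the medians or from the 132 and 181.

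**Figure D5:**
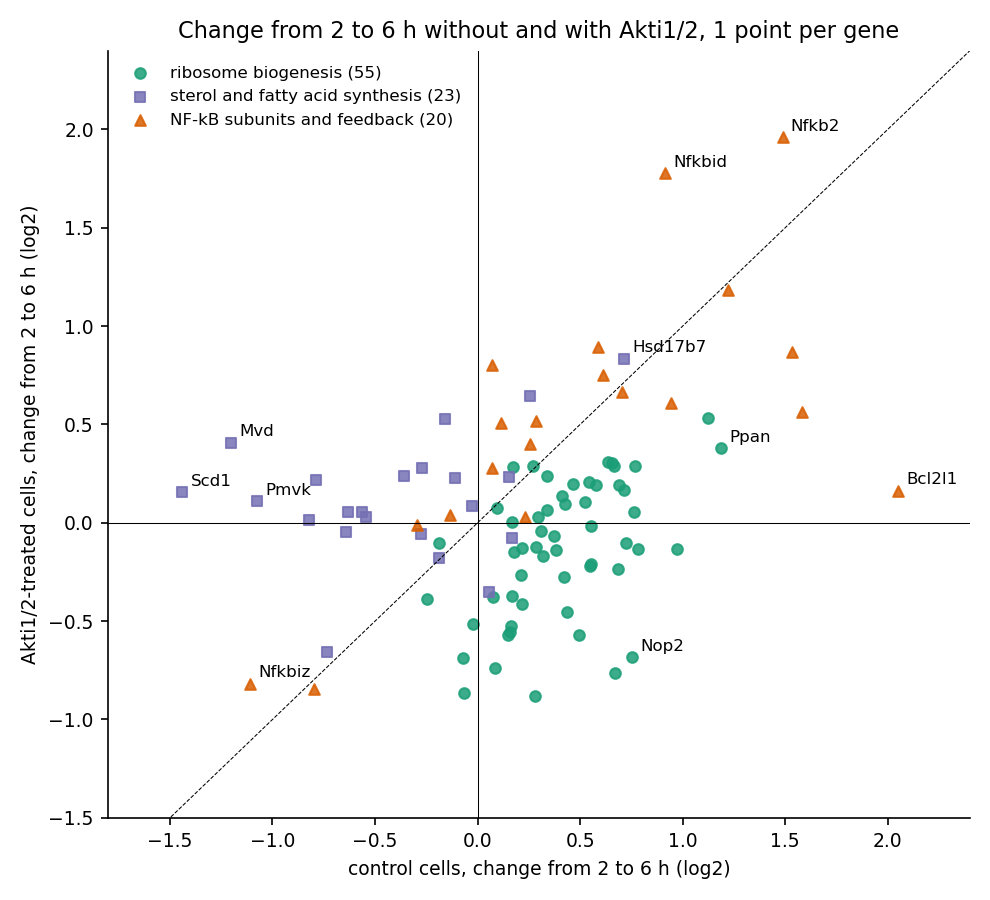
Change from 2 to 6 h (log2) in control cells (horizontal axis) and in Akti1/2-treated cells (vertical axis) for the tested genes of 3 lists, 1 point per gene, with lines at 0 and a dashed line of equal change. Ribosome biogenesis genes (circles, median 0.382 without and -0.124 with Akti1/2) lie below the dashed line for the most part, sterol genes (squares) above it, and NF-κB genes (triangles, medians 0.436 and 0.539) near it.

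Hamp was not above background on the treated arrays, which read 4.71 and 4.46 at 2 h and 4.92 and 4.69 at 6 h (interaction -2.95, standard error 0.28, adjusted p = 0.000243, limma). For Il33 the treated arrays read 5.53 and 5.66 at 2 h and 5.89 and 5.37 at 6 h (interaction -1.92). Bcl2l1 had a mean of 6.73 at 2 h and 6.89 at 6 h with Akti1/2 (2 arrays each), and its rise was smaller by 1.89 (interaction, adjusted p = 0.00182, limma). By contrast, the interaction of Il5 was 0.74 (adjusted p = 0.196), that of Il3 -0.30 (adjusted p = 0.579) and that of Socs3 0.11 (standard error 0.33, adjusted p = 0.852), all not called by limma.

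Hbp1 had the largest positive interaction. It fell from 7.42 and 7.40 to 5.71 and 5.82 in control cells and read 8.94 and 8.80, then 9.54 and 9.57 with Akti1/2 (interaction 2.33, standard error 0.16, adjusted p = 2.93e-05, limma). Col4a1, a collagen chain, read 5.68 and 5.81, then 4.79 and 4.68 in control cells and 8.15 and 7.95, then 8.94 on both arrays with Akti1/2 (interaction 1.91). Its control arrays were at background at 6 h, so that its fall there was at least 1.05-fold. Fbxo33, an F-box protein, and Abtb1, an ankyrin and BTB protein, did not pass the test in control cells (-0.15 and -0.46), and their interactions were 1.97 and 1.86. Stra6, a retinol transporter, and Diaph1, an actin-nucleating formin, had interactions of -2.04 and -1.99 and were not called in control cells either (0.69 and 0.30).

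By list, 17 of 55 ribosome biogenesis genes differed by the interaction, all with the lower change under Akti1/2 (5.25% of all genes tested did), and 3 rose and 11 fell there. Nop2, an rRNA methyltransferase, rose by 0.76 in control cells and changed by -0.68 with Akti1/2 (interaction -1.44, adjusted p = 0.000654, limma). With arrays scaled to the same mean in place of quantile normalization 11 of the list differed, and 7 to 10 did with a control array left out, 7 without replicate 1 at 6 h. In nucleotide synthesis 10 of 27 genes differed, all lower under Akti1/2, and 3 to 6 did with a control array left out. Of the 23 sterol genes, 6 differed with the higher change under Akti1/2 (6.75% of all genes did) and 1 with the lower, the last not called with any control array left out, and Mvd and Scd1 had interactions of 1.61 and 1.59. Among 17 FOXO target genes, 5 differed, all with the higher change under Akti1/2, Ypel3 by 1.76, Tob1 by 1.52 and Txnip by 1.42.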

How the data were processed

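Gene expression was measured in D10 T cells on Illumina mouse RefSeq8 arrays, in 8 groups of 2 arrays. RNA was extracted with RNeasy columns, and its quality was checked by the authors. The authors deposited bead intensities on a linear scale, 1 value per gene and array for 18138 genes, without normalization or background subtraction per the file headers, together with 798 negative controls. Values are summed up per gene, and transcripts cannot be separated. A second table of control probes covers 15 of the 16 arrays and was not used, since the main table holds them for all arrays.

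A detection p was the fraction of negative controls as bright as the gene or brighter, and genes with a p under 0.01 were above background. Genes above background on at least 2 of 16 arrays were tested (7395). Intensities were processed with neqc in limma 3.58.1 under R 4.3.3, which corrects background on the negative controls, adds an offset of 16, quantile-normalizes and takes log2. All 8 groups entered 1 fit (lmFit, contrasts.fit, eBayes, 8 residual and 4.26 prior degrees of freedom) with no block, and p-values were adjusted over the 7395 genes by Benjamini-Hochberg. A gene at background on both arrays of a group is given as "at least N-fold", the brighter group's mean against the dim arrays' mean, in which each dim array counts with its lowest detected gene's value, or with the gene's value if that is higher. The number of arrays limits the precision, with a median standard error of 0.152 (log2).

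The members, gene lists and tests were chosen with earlier results of these data known. Named were the 15 largest rises and falls among called genes whose replicate numbers shared the direction, the 4 largest interactions each way, and list members, up to 4 by size of change. Another 24 genes were added after their values were seen. Symbols were read through a mouse RefSeq gene table, which holds 16590 of the genes. Bases before gene starts came from RefSeq (GRCm38.p6), searched for 6 motifs on both strands. Alternatives covered background correction, scaling, filters, replicate and chip blocks, a fit of the compared groups alone, J5 scores as named in the methods, and leaving out each array. The steps were tested on simulated arrays of this comparison over 7395 genes, where 156 of 200 planted changes were recovered, 98% of those of log2 1 and 14% of those of log2 0.5, and 12 other genes were called. Replicate numbers were checked for pairing. Tables were made with Python 3.11.15 and pandas 2.3.3.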

Additional observations from a re-analysis of the deposited data

Results flagged for a closer look

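The change from 2 to 6 h differed between control and Akti1/2-treated cells for 887 genes by the interaction in limma (adjusted p under 0.05), and the genes named in the report with such a difference are given here with the interaction on the log2 scale, the change with Akti1/2 minus that in control cells. No explanation was tested.

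Among genes that rose in control cells, the change was lower with Akti1/2 for Hamp (-2.95), Il33 (-1.92), Bcl2l1 (-1.89), Calr (-1.56), Gadd45g (-1.53), Nop2 (-1.44), Rrp9 (-1.44), Il10 (-1.38) and Spsb1 (-1.3). The same held for Cdk6 (-1.26), Chac1 (-1.22), Il2rb (-1.21), Il24 (-1.16), Znhit6 (-1.1), Bcl2a1d (-1.02), Ccl1 (-1.01), Myc (-0.99), Nop56 (-0.92) and Stat5a (-0.9). It also held for Ppan (-0.81), Xcl1 (-0.78), Ctps (-0.7) and Cd82 (-0.5). Stra6 (-2.04) and Diaph1 (-1.99) were not called in control cells, and Hba-a1, a haemoglobin gene that fell there, had an interaction of -0.83. Nfkbid rose in control cells and had a higher change with Akti1/2 (0.86). With 1 control array left out, the calls in control cells were lost for Calr and Hba-a1 whichever array it was (adjusted p 0.0648 to 0.22 and 0.122 to 0.135). The call was lost for Rrp9 without replicate 1 at 2 h or replicate 2 at 6 h (0.0607 and 0.0517), and for Chac1 without replicate 2 at 2 h (0.0607).

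Among genes that fell in control cells, the change was higher with Akti1/2 for Hbp1 (2.33), Col4a1 (1.91), Ypel3 (1.76), Dusp1 (1.73), Csf1 (1.67), Mvd (1.61), Scd1 (1.59), Foxq1 (1.59), Tob1 (1.52) and Bbc3 (1.49). The same held for Txnip (1.42), H2ac8 (1.28), Gfi1 (1.28), Mfsd4b5 (1.23), Pmvk (1.18), Dnajc6 (1.1), Ifngr1 (1.09), Tsc22d3 (1.01), Nsdhl (1.01) and Trp53inp1 (1.0). It also held for Jun (0.98), Lbh (0.97), Acss1 (0.96), Cyp51 (0.84) and Pfkp (0.81). Fbxo33 (1.97) and Abtb1 (1.86) were not called in control cells. Col4a1, Foxq1 and Mfsd4b5 were at background on both control arrays at 6 h, so that their falls there are lower bounds. Mfsd4b5 was also at background on the Akti1/2 arrays at 2 and 6 h. A fall with Akti1/2 could not be seen for it, and nothing is read from its interaction.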

How the results depend on the processing

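With 2 arrays a group, the number of calls leaned on single arrays. The direction of the 131 called genes among the 137 named did not change under any alternative run, and 49 of them lost the call under at least 1. The 2 h and 6 h arrays of every called gene lay apart, so that leaving out an array could not reverse a direction. The unchanged direction is therefore no separate evidence. A fit of the arrays compared alone, with fewer degrees of freedom, gave 502 calls (256 higher and 246 lower), 607 with Akti1/2 and 223 interactions. With 1 array left out, the calls in control cells ranged from 451 to 754 (215 to 417 higher, 229 to 338 lower), those with Akti1/2 from 1166 to 2420 and the interactions from 516 to 1292, the lowest without replicate 2 of Akti1/2 at 2 h. The J5 score beyond 20 picked 136 genes of 18138 (0.750%), of which limma called 74. Arrays scaled to the same mean gave 909 interactions with 68.9% higher, against 56.3%. The other alternatives kept these counts over all genes within 1.5 times, but not those of every list: without background correction 11 DNA replication genes fell (5 with it), 9 translation factors rose (4 with it) and 4 T cell receptor genes rose (2 with it). Deviations of the same replicate number at 2 and 6 h correlated at -0.141. Between any 2 groups, correlations of replicate differences ran from -0.296 to 0.264. These values gave no sign of pairing by number but cannot exclude it. With the replicate number as a block, 1065 genes were called (539 higher and 526 lower), and with the 6 h numbers crossed, chosen after seeing the data, 1122. Signal near background limits the fold of dim genes to a lower bound.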
